A study of Homo sapiens with 12 samples.

Results

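The genes described here encode the subunits of the mitochondrial respiratory chain and ATP synthase, from nuclear and from mitochondrial DNA, in MDA-MB-231, a human triple-negative breast cancer line. They were chosen by gene symbol: NDUF, SDH, UQCR, COX and ATP5 symbols and the protein-coding MT- symbols, with pseudogenes left out. Of the 57773 rows of the gene table, 141 matched, 41 of them pseudogenes, and the 100 rows kept hold 96 symbols. With at least 10 counts in 3 or more libraries, 93 genes are described, 80 nuclear and 13 mitochondrial, and all 93 passed the filter of the test. The 3 others were the COX isoforms COX6A2 and COX7A1, with 0 counts in all 12 libraries, and COX8C, with 2 counts in all. A count of 0 allows up to 3 counts, which is 0.0249 to 0.0320 CPM (counts scaled to library size) in these libraries and covers counting error only. Symbols are those of the table, so ATP5B is ATP5F1B in current use. COX4I1, COX4I2 and CYC1 are subunits that the symbol pattern leaves out, and they appear below among the related genes.

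The study treated this line with the growth factor TGFβ and with alisertib, an inhibitor of the mitotic kinase Aurora A, in 4 groups of 3 libraries. These are untreated cells (CTL 1, 2 and 3), cells given TGFβ for 48 h (TGFB 4, 5 and 6), cells given alisertib for 48 h (ALIS 7, 8 and 9) and cells given both for 48 h (Combination 10, 11 and 12). All groups are 1 cell line grown in medium with serum, and doses are not given in the sources used here. Whether the 3 libraries of each group came from independent cultures is not stated, and the p-values therefore reflect library-to-library spread that may be technical.

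The respiratory chain of the inner mitochondrial membrane passes electrons from NADH (complex I) and succinate (complex II) through complex III and cytochrome c to oxygen at complex IV, and complexes I, III and IV pump protons. Complex V, the ATP synthase, uses the returning protons to make ATP. Complex II is encoded wholly in the nucleus, whereas the other complexes combine nuclear subunits with a few from mitochondrial DNA, which is transcribed as long precursors. The nuclear subunit genes are known targets of the transcription factors NRF1 and GABP, which the coactivator PGC-1α (gene PPARGC1A) works with.

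Promoter sequence from RefSeq (GRCh38.p14) was matched to 65 of the 80 nuclear genes, and 4 promoters are shown because the RNA of these genes changed in opposite directions with TGFβ. ATP5C1 and UQCRH fell, while NDUFB4 and UQCRC1 rose. ATP5C1 was called in each of 19 other settings of the analysis, whereas the call was lost in 6 for UQCRH, in 5 for NDUFB4 and in 1 for UQCRC1. Each line is the 250 bases before the start listed first for the gene, and capitals mark an exact match, on either strand, to a short motif. The ATP5C1 window is chr10:7787927-7788176 (+), that of UQCRH chr1:46303448-46303697 (+), that of NDUFB4 chr3:120596086-120596335 (+) and that of UQCRC1 chr3:48609647-48609896 (-).
ATP5C1: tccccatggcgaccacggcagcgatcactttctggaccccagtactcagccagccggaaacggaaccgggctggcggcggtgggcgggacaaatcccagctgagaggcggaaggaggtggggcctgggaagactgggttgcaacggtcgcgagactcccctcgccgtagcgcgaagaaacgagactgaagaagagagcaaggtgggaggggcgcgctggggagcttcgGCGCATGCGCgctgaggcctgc
UQCRH: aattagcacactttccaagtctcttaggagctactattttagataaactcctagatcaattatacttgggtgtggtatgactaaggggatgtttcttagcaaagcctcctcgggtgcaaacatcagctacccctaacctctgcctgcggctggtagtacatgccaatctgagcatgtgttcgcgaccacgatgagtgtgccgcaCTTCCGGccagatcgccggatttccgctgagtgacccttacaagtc
NDUFB4: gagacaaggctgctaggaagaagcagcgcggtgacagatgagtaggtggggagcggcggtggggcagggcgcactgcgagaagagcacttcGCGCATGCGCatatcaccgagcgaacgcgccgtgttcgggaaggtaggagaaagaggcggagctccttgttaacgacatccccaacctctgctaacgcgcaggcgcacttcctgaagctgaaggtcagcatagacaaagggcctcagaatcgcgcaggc
UQCRC1: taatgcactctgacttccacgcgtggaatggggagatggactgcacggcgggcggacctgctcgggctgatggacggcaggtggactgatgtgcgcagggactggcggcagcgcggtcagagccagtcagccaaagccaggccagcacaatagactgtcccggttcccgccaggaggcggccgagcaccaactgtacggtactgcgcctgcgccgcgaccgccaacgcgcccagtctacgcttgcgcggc
The capitals in ATP5C1 and NDUFB4 are the NRF1 motif searched for, which is its own reverse complement. Those in UQCRH are the ETS motif of GABP, CCGGAAG, read on the other strand. The NRF1 letters stood in 3 of the 65 windows (4.62%), those of SDHD, ATP5C1 and NDUFB4, against 1.03% of 35116 RefSeq promoter windows of the same length. The ETS letters stood in 16 of 65 (24.6%), against 8.52% of all windows. Another motif, YY1 (AAGATGGC, not overlapping the others in letters), stood in 1 of 65 (1.54%), against 1.36%. Of the 19 matched genes that fell with TGFβ, 1 held the NRF1 letters, 5 the ETS letters and 0 those of YY1. A match describes letters only, and UQCRC1 held none of the motifs in this window.

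Total counts were 93701658 to 120619368 per library, of which the 13 genes of mitochondrial DNA took 2.53% to 3.14%. The known TGFβ targets TGFBI, PMEPA1 and SMAD7 rose in the cells labelled as TGFβ-treated, SMAD7 from 10.9 ± 0.163 to 51.3 ± 1.63 CPM. Of the 5 genes on this list 4 were called higher with TGFβ and none lower. With alisertib alone 2 of the 5 were called higher, and with both agents 2 were called lower than with TGFβ. Markers of the line were at a summed 4023 to 4135 CPM in untreated and 5220 to 5407 CPM in TGFβ-treated libraries. They were at 4291 to 4387 CPM with alisertib and 5322 to 5449 CPM with both agents. Of these 5 markers, 3 were called higher and 1 lower with TGFβ against untreated cells. With both agents against untreated cells 3 were called higher and 2 lower. The list of luminal breast markers summed to 230 to 318 CPM untreated, 281 to 336 CPM with TGFβ, 242 to 305 CPM with alisertib and 255 to 310 CPM with both. Of its 5 genes 2 passed the filter of the test. Against untreated cells 1 of these 2 was called lower with TGFβ and 1 with both agents, and none was called higher. The summed leukocyte markers were at 1.65 to 3.39 CPM in untreated and 1.09 to 1.22 CPM in TGFβ-treated libraries (6 of 6 found, none at 0 over all 12 libraries). The endothelial ones were at 2.20 to 2.67 and 0.975 to 1.30 CPM (3 of 4 found). With alisertib alone the leukocyte sum was 1.62 to 1.97 CPM and the endothelial sum 2.82 to 3.26 CPM. With both agents they were 0.954 to 1.07 and 1.30 to 1.67 CPM. The fibroblast list, which holds collagen genes known to be induced by TGFβ, moved from 11.9 to 16.3 CPM untreated to 132 to 161 CPM with TGFβ (5 of 5 found). Their part in the results was not tested. In bulk RNA, fewer cells of a type and less RNA per cell cannot be told apart.

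CTL 1, TGFB 6, ALIS 9 and Combination 10 stood apart from their own groups along the GC content of the transcripts, and this reached the respiratory chain genes. In these libraries the deviation of a gene from its group mean correlated with its GC content at a Spearman rho of -0.66, -0.64, -0.55 and -0.65 across 90 genes, which share the libraries and their depth. In the other libraries rho ran from 0.10 (ALIS 8) to 0.74 (Combination 11), since deviations within a group balance each other. The 17 genes with at least 55% GC deviated by a median of -0.33, -0.24, -0.13 and -0.22 (log2) in the 4 libraries, and by 0.11 and 0.15 in TGFB 4 and TGFB 5. In ALIS 7, 8 and 9 the medians were 0.12, 0.01 and -0.13, so ALIS 7 deviated about as far as ALIS 9. Each of the 4 is the library of its group with a negative correlation. The plot of deviation against GC content shows the slope in all 4. Values without these libraries, or with a correction offset for GC content and transcript length, stand beside the results that they bear on most.

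**Figure D1:**
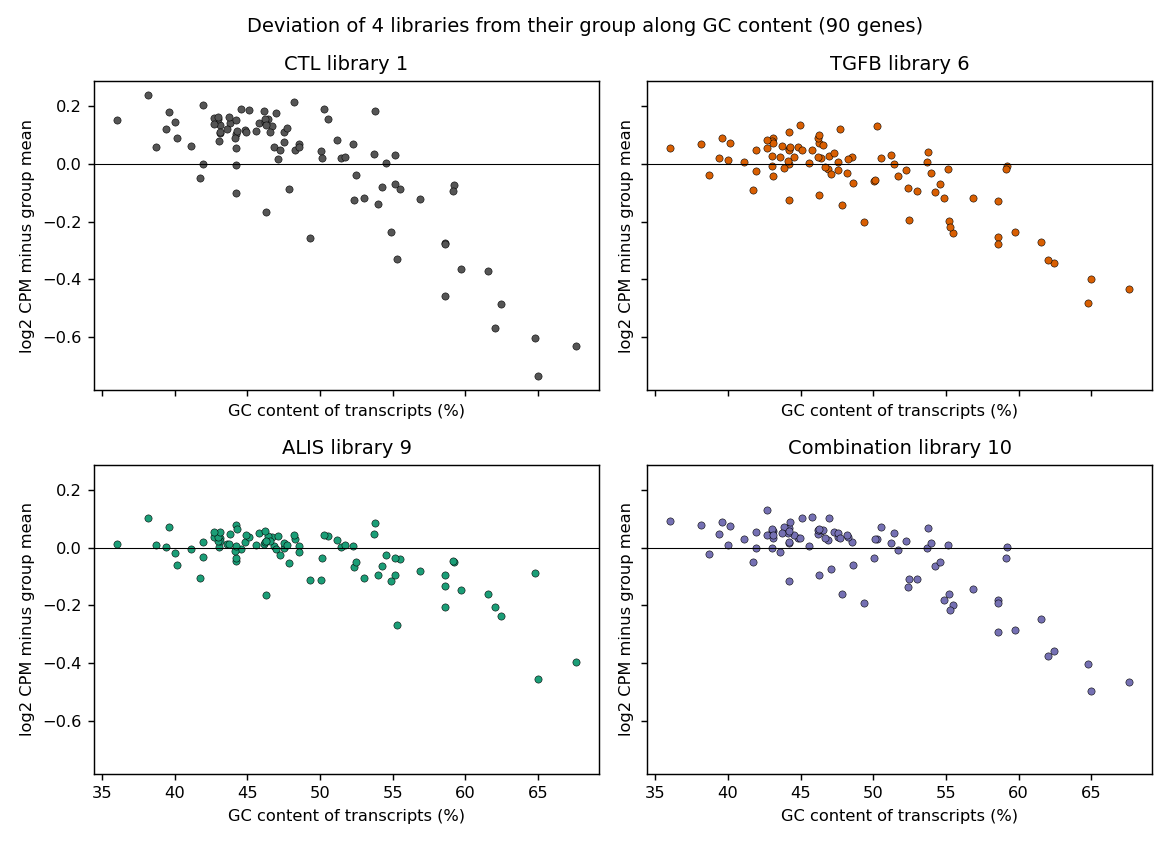
Deviation of log2 CPM from the group mean (vertical axis) against the GC content of the gene's transcripts in percent (horizontal axis) for 90 respiratory chain genes, 1 point a gene, in the 4 libraries that stood apart. The median of the 17 genes with at least 55% GC lies below 0 in each, with a rank correlation of -0.66, -0.64, -0.55 and -0.65.

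With TGFβ, 21 of the 93 genes were lower and 2 higher at an adjusted p under 0.05 (called; edgeR quasi-likelihood test, Benjamini-Hochberg over 20571 genes), and no gene of mitochondrial DNA was called. The share called lower, 22.6%, was near the 20.1% of all tested genes, and the share called higher was 2.15% against 18.5%. ATP5B, the catalytic β subunit of ATP synthase, had the largest fall of the called genes, to 0.757 of its untreated level, and COX7A2 of complex IV fell to 0.790. Either way, 24.7% of the 93 genes were called against 38.6% of all tested genes. The median log2 fold change was -0.07 over the 93 genes and -0.01 over all genes, with a median standard error (SE) of 0.07 for the 93.

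The count depended on single libraries: it was 12 without CTL 1, 12 without TGFB 4 and 12 without TGFB 5. Without all 4 libraries that stood apart 16 were higher and 19 lower, with a term for them 14 higher and 31 lower. With the offset for GC content and length 7 were higher and 24 lower. Of all tested genes, 34.9%, 31.1% and 30.9% were called without CTL 1, TGFB 4 and TGFB 5. The share was 45.3% without the 4 libraries, 51.2% with the term and 47.3% with the offset. Of the 23 called genes, 18 were also called in the same direction without the 4 libraries and 19 with the offset. The 18 genes with at least 55% GC had a median log2 fold change of 0.17 and the 75 others of -0.09. Without the 4 libraries these medians were 0.14 and -0.05, and with a term for them 0.17 and -0.08. With the offset both medians were -0.01. The offset is fitted to the relation with GC content in each library and takes out such a split whatever its source, so the equal medians test nothing.

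**Figure D2:**
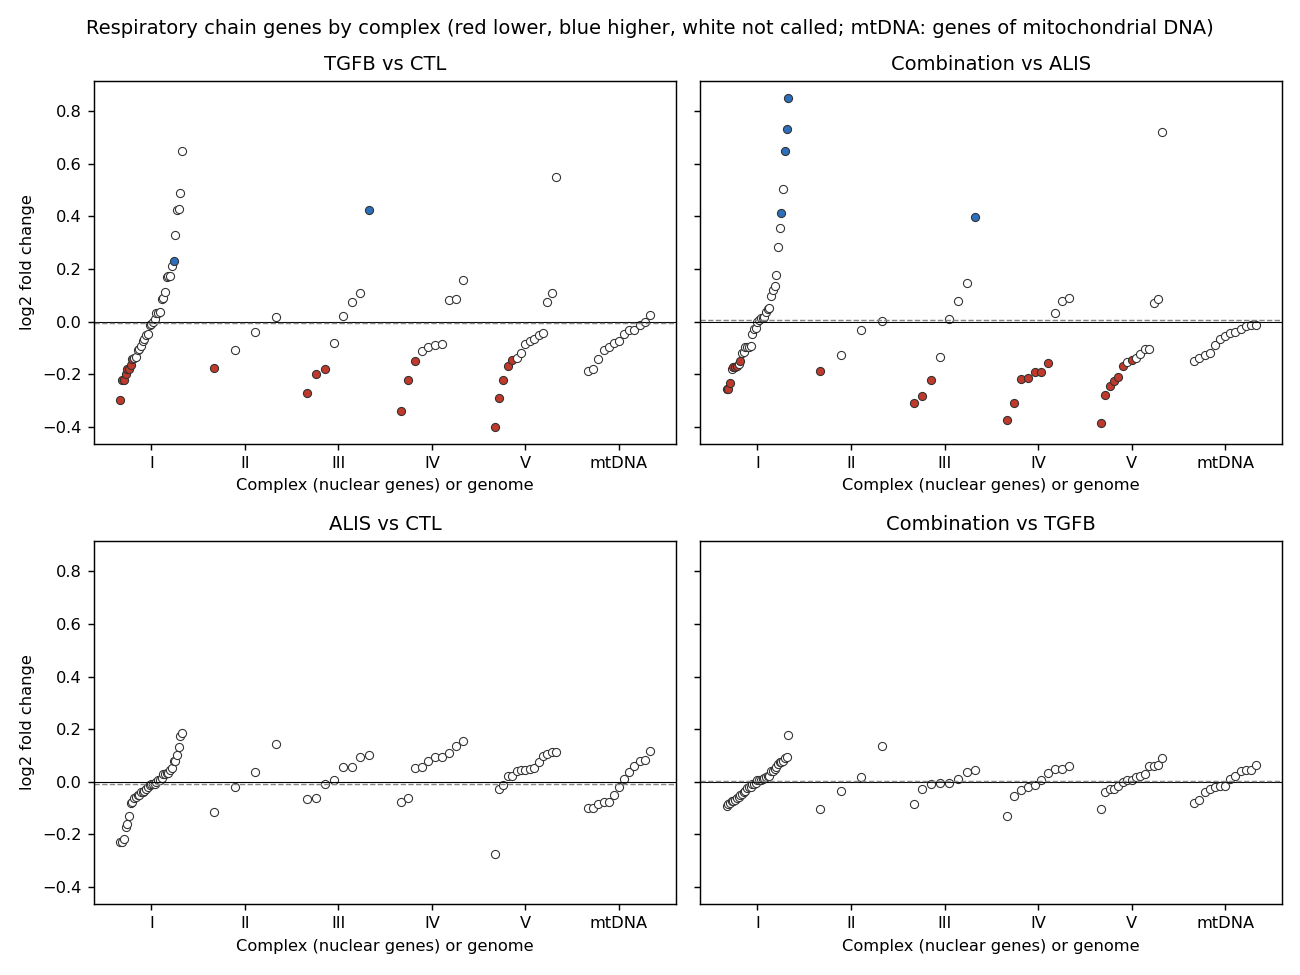
Log2 fold change (vertical axis) of each gene in 4 comparisons, by complex for nuclear genes and together for the 13 genes of mitochondrial DNA, ordered by value within each; dashed lines are the median of all tested genes. ATP5S, ATP5SL, COX7A2L and 3 genes under 1 CPM are not drawn. Red (called lower) and blue (called higher) points appear in the 2 comparisons of TGFβ and in neither comparison of alisertib.

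In complex V, 5 of 15 nuclear genes fell (33.3%, beside 20.1% of all tested genes) and none rose with TGFβ (18.5% of all tested genes). ATP5B stood at 799, 702 and 658 CPM in CTL 1, 2 and 3 and at 541, 541 and 552 CPM in TGFB 4, 5 and 6. Every TGFβ-treated library was below every untreated one. The log2 fold change was -0.40 ± 0.06 (SE, adjusted p = 0.000128, edgeR). ATP5C1, the γ subunit of the central shaft that turns inside the ring of α and β subunits, fell from 268, 237 and 218 CPM to 192, 194 and 205 CPM, again without overlap, by 0.29 on the log2 scale (adjusted p = 0.00204, edgeR). ATP5H (-0.22) and ATP5O (-0.15), which belong to the stalk that holds the ring still, fell as well. With the offset for GC content and length the falls of ATP5C1, ATP5H and ATP5O were 0.18, 0.13 and 0.07, all still called, and that of ATP5B was 0.38. ATP5G1 fell by 0.17 (0.14 and not called without the 4 libraries that stood apart), while the other genes of the same c subunit, ATP5G2 (-0.05) and ATP5G3 (-0.04), were not called; whether the 3 differ was not tested. ATP5A1, the α subunit, was at 737 ± 71.0 CPM untreated and 670 ± 7.88 CPM with TGFβ and was not called. Summed over the 15 genes, the level per kilobase was 943 to 1093 in untreated and 878 to 896 in TGFβ-treated libraries, with no test of the sum.

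In complex IV, 3 of 12 nuclear genes fell, and COX7A2, a small subunit at the surface of the complex, had the largest fall of these 3. Its levels were 205, 185 and 164 CPM untreated and 141, 147 and 149 CPM with TGFβ, with no overlap (log2 fold change -0.34 ± 0.07, adjusted p = 0.000776, edgeR). COX5A fell by 0.22 and COX7C by 0.15, but the COX5A values overlapped (untreated 65.3, 56.2 and 50.9 CPM, with TGFβ 45.9, 47.9 and 53.9 CPM). COX5A lost its call in 12 of 19 other settings, and COX7C fell by only 0.04 with the offset for GC content and length, where it was not called. Of complex IV none rose, beside 18.5% of all tested genes.

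Complex III moved both ways. Of its 8 nuclear genes 3 were lower (37.5%, beside 20.1% of all tested genes) and 1 higher (12.5%, beside 18.5%). UQCRFS1, the Rieske iron-sulfur protein that takes electrons from ubiquinol, fell from 104, 87.6 and 83.5 CPM to 75.3, 73.9 and 78.5 CPM (log2 fold change -0.27 ± 0.07, adjusted p = 0.00797, edgeR). UQCRH (-0.20) and UQCRC2 (-0.18) fell with it. The call of UQCRH was lost in 6 of 19 other settings, and without CTL 1 its value was -0.11 (adjusted p = 0.126, edgeR). That of UQCRC2 was lost in 7. UQCRC1, like UQCRC2 a core protein of the matrix side, rose instead, from 104, 139 and 137 CPM to 176, 179 and 155 CPM. All 3 TGFβ-treated libraries were above all 3 untreated ones (log2 fold change 0.42 ± 0.11, adjusted p = 0.00568, edgeR). The rise of UQCRC1 was 0.36 without the 4 libraries that stood apart and 0.24 with the offset, called in both; without a filter on low counts it was 0.42 and missed the threshold (adjusted p = 0.0620, edgeR). With the offset UQCRFS1 was -0.18 and UQCRH -0.12, both called, and UQCRC2 was -0.07 and not called.

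**Figure D3:**
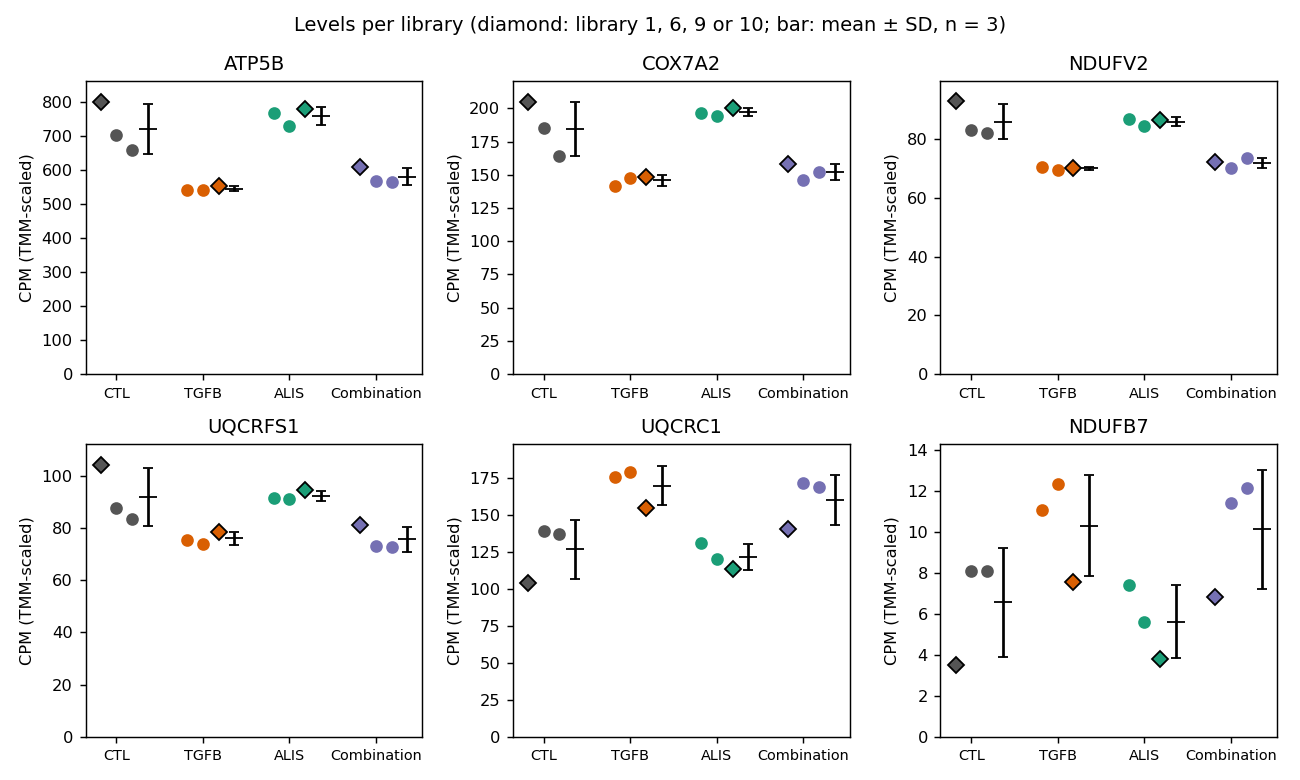
TMM-scaled CPM (vertical axis, from 0) of 6 nuclear genes in the 12 libraries, 3 a group; diamonds are the libraries that stood apart and bars the mean ± SD. ATP5B, COX7A2, NDUFV2 and UQCRFS1 sit lower in both groups with TGFβ and UQCRC1 sits higher; in NDUFB7 the diamonds are the lowest point of every group.

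Complex I, the largest complex, had 8 lower and 1 higher of 37 nuclear genes with TGFβ. The share lower, 21.6%, was near the 20.1% of all tested genes, and the share higher was 2.7% against 18.5%. NDUFV2, which carries an iron-sulfur cluster beside the NADH site, was at 92.9, 83.02 and 81.9 CPM untreated and at 70.5, 69.4 and 70.1 CPM with TGFβ (log2 fold change -0.30 ± 0.05, adjusted p = 0.000302, edgeR). The 3 treated values lay within 1.1 CPM of each other and below every untreated value. NDUFS1 (-0.22), the largest iron-sulfur subunit of the electron entry arm, NDUFS3 (-0.20), NDUFA8 (-0.18) and NDUFS4 (-0.16) fell as well, as did NDUFAB1 (-0.22), the mitochondrial acyl carrier protein, NDUFC1 (-0.18) and NDUFA9 (-0.14). NDUFS4 and NDUFA9 were -0.07 and -0.04 with the offset for GC content and length and not called there, and neither was called without the 4 libraries. NDUFAB1 (-0.09) and NDUFC1 (-0.13) were not called without the 4 libraries. Of 19 other settings NDUFC1 lost its call in 15, NDUFA9 in 12, NDUFAB1 in 9 and NDUFS4 in 7, whereas NDUFV2, NDUFS1, NDUFS3 and NDUFA8 kept it in all 19. With the offset NDUFS1 was -0.13, still called. NDUFB4, a small membrane-arm subunit, rose from 39.2, 44.9 and 42.3 CPM to 49.7, 53.5 and 45.2 CPM (log2 fold change 0.23 ± 0.07, adjusted p = 0.0237, edgeR). The call of NDUFB4 was lost without CTL 1, CTL 3, TGFB 4 or TGFB 5, and with the offset its value was 0.33.

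Complex II had 1 called gene of 4. SDHB, the iron-sulfur subunit, fell from 96.0, 93.4 and 87.3 CPM to 79.9, 84.1 and 80.4 CPM (log2 fold change -0.18 ± 0.05, adjusted p = 0.00789, edgeR). With the offset the fall of SDHB was 0.10, still called. SDHA (-0.04), the flavoprotein that oxidises succinate, and the membrane anchors SDHC (-0.11) and SDHD (0.02) were not called. ATP5S, which carries an ATP5 name but is not a structural subunit, fell by 0.27, with 11.5, 10.6 and 11.2 CPM against 9.13, 8.88 and 9.50 CPM. Its fall was 0.17 with the offset, still called.

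The comparison of TGFβ in the presence of alisertib (Combination against ALIS) shares no library with the one without it, and its calls were read beside the first. With alisertib, 25 of the 93 genes were lower and 5 higher, 32.3% against 38.4% of all tested genes; lower calls were 26.9% against 19.0% of all genes and higher calls 5.38% against 19.4%. The count was 19 without Combination 11 and 41 without CTL 1, which is in neither group compared. Without the 4 libraries that stood apart it was 57 (15 higher and 42 lower). With the term for them 12 were higher and 40 lower, and with the offset for GC content and length 10 higher and 27 lower. Of all tested genes, 29.9% were called without Combination 11 and 42.7% without CTL 1. The share was 48.8% without the 4 libraries, 51.0% with the term and 46.5% with the offset.

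In both comparisons 20 genes were called in the same direction, 19 lower and UQCRC1 higher. These are 87.0% of the 23 called without alisertib and 66.7% of the 30 called with it; over all genes the shares were 82.0% and 82.4%. The sign was the same in 86 of 93 genes. Across the 93 genes the log2 fold changes correlated at a Pearson r of 0.91, and across all tested genes at 0.86.

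**Figure D4:**
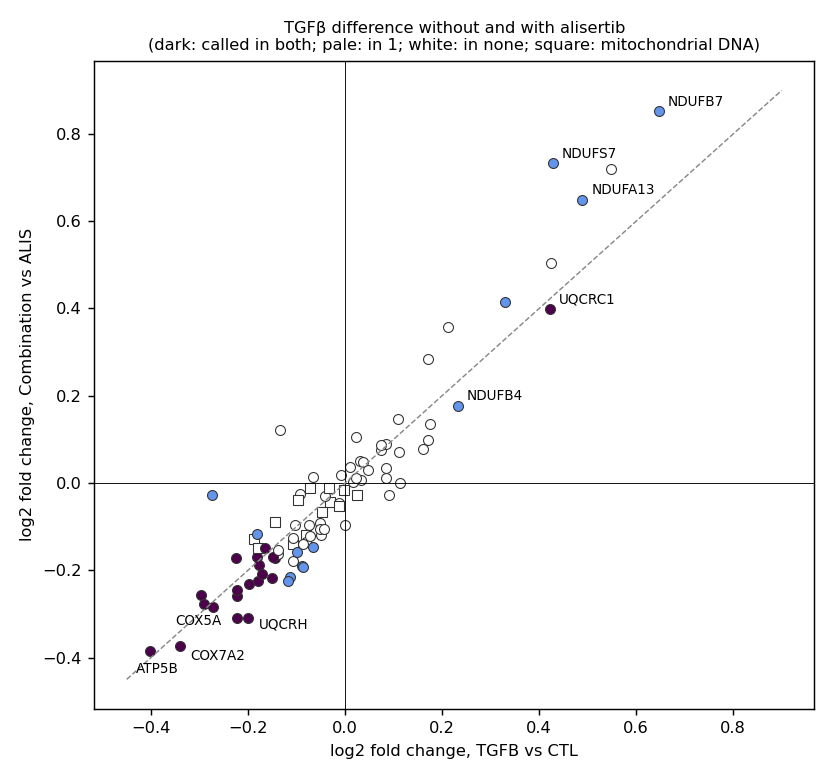
Log2 fold change with TGFβ in the absence of alisertib (horizontal axis) and in its presence (vertical axis), 1 point a gene, with the dashed line where both are equal; 3 genes under 1 CPM are not drawn. The 20 genes called in both, in dark, lie at the lower left, apart from UQCRC1 at the upper right.

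ATP5B again fell furthest with alisertib present, from 766, 728 and 779 CPM in ALIS 7, 8 and 9 to 609, 568 and 563 CPM in Combination 10, 11 and 12 (log2 fold change -0.39 ± 0.06, adjusted p = 0.000205, edgeR). COX7A2 fell from 196, 194 and 200 CPM to 158, 146 and 152 CPM (-0.37). In neither gene did the groups overlap. Complex IV had 7 of 12 nuclear genes lower here (58.3%, beside 19.0% of all tested genes): COX7A2, COX5A (-0.31), COX7C (-0.22), COX7B (-0.22), COX6C (-0.19), NDUFA4 (-0.19) and COX6B1 (-0.16). NDUFA4 is named after complex I but is counted here as a subunit of complex IV. Complex V had 7 of 15 lower (46.7%, beside the same 19.0%), among them ATP5J2 (-0.22) and ATP5L (-0.15), which belong to the membrane part. ATP5J2 shares its reads with the overlapping read-through gene ATP5J2-PTCD1. Complex III had UQCRH (-0.31), UQCRFS1 (-0.28) and UQCRC2 (-0.22) lower and UQCRC1 (0.40) higher, and complex II again SDHB (-0.19). The call of UQCRC1 here was lost without ALIS 9, without Combination 12 and without a filter on low counts. With the offset ATP5C1 was -0.17, UQCRFS1 -0.17, COX7B -0.11, SDHB -0.09 and UQCRC1 0.19, all called, whereas ATP5L (-0.05) and NDUFA4 (-0.11) were not.

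In complex I, 7 nuclear genes were lower and 4 higher with alisertib present. These are 18.9% and 10.8% of its nuclear genes, beside 19.0% and 19.4% of all tested genes. Of the 7, NDUFA9 (-0.08) and NDUFS4 (-0.04) were not called with the offset. The 4 were NDUFB7 (0.85), NDUFS7 (0.73), NDUFA13 (0.65) and NDUFV1 (0.41), none of which was called without alisertib (0.65, 0.43, 0.49 and 0.33). NDUFV1 binds the flavin that accepts electrons from NADH, and NDUFS7 carries the last iron-sulfur cluster before ubiquinone. NDUFB7 was at 7.40, 5.62 and 3.82 CPM in ALIS 7, 8 and 9 and at 6.82, 11.4 and 12.2 CPM in Combination 10, 11 and 12, and the groups overlapped. In each of the 4 groups the library that stood apart was the lowest in NDUFB7. With the offset for GC content and length the 4 values were 0.39, 0.23, 0.29 and 0.15, and only NDUFV1 was called; without the 4 libraries they were 0.85, 0.87, 0.71 and 0.47, all called.

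Compared with untreated cells, cells given both agents had 19 genes lower and 2 higher (22.6% against 39.7% of all tested genes; lower calls 20.4% against 20.3%, higher calls 2.15% against 19.4%). This comparison shares CTL with the others, so its values are given beside them only. ATP5B was -0.31, COX7A2 -0.28, UQCRFS1 -0.28, NDUFS3 -0.27 and NDUFV2 -0.26, and UQCRC1 (0.34) and NDUFB4 (0.21) were higher; with the offset UQCRC1 was 0.18 and NDUFB4 0.27, the latter not called. The count was 8 without Combination 11, 9 without Combination 12, 12 without CTL 1 and 32 without CTL 3. Of all tested genes, 32.4%, 31.7%, 37.0% and 36.5% were called there. It was 37 (14 higher and 23 lower) without the 4 libraries and 37 (7 higher and 30 lower) with the offset, beside 47.4% and 49.8% of all tested genes. All 21 genes were also called, in the same direction, without the 4 libraries.

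Alisertib alone gave no called gene among the 93 in edgeR, against 6.74% of all tested genes (3.55% higher and 3.19% lower), with 7 at an unadjusted p under 0.05; DESeq2 called SDHB (0.16) and NDUFB9 (0.20). The fold changes ran from -0.27 to 0.40 on the log2 scale. SDHB had the smallest p: 96.0, 93.4 and 87.3 CPM untreated and 105, 98.9 and 102 CPM with alisertib, with no overlap, a log2 fold change of 0.15 (95% confidence interval 0.04 to 0.25) and an adjusted p of 0.0880 (edgeR). This result turned on the libraries. Without CTL 1, 11 genes were called, all higher, among them COX7B (0.24) and COX6C (0.23), beside 12.3% of all tested genes. Without the 4 libraries that stood apart 36 were called, 26 higher and 10 lower, beside 24.5% of all tested genes. Of the 75 genes under 55% GC 24 were higher, and of the 18 above it 9 were lower. With the offset for GC content and length 9 were called, beside 18.3% of all tested genes. Of these 9, 3 were higher and 6 lower, and all 6 lower ones were genes of mitochondrial DNA. Without the 4 libraries 4 genes of mitochondrial DNA were called higher and none lower.

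Alisertib added to TGFβ (Combination against TGFB) also gave no called gene in edgeR, against 2.08% of all genes (1.19% higher and 0.89% lower), with 1 at an unadjusted p under 0.05 and 0 by DESeq2. The gene was again SDHB, at 79.9, 84.1 and 80.4 CPM with TGFβ and 91.2, 89.4 and 88.0 CPM with both, without overlap (log2 fold change 0.14, 95% confidence interval 0.03 to 0.24, adjusted p = 0.203, edgeR). The interaction, which asks whether the alisertib difference depends on TGFβ, had no called gene in edgeR (0.282% of all genes, 0.117% higher and 0.165% lower), with ATP5S alone at an unadjusted p under 0.05 (0.25, adjusted p = 0.723) and 0 by DESeq2. Its median SE over the 93 genes was 0.09, and for ATP5B its 95% confidence interval was -0.19 to 0.22. Without the 4 libraries 3 genes were called in the interaction, beside 3.59% of all tested genes: UQCRH (-0.25), COX6C (-0.21) and NDUFA13 (0.31).

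The genes of mitochondrial DNA were far more abundant per kilobase than the nuclear ones. In untreated cells they spanned 323 ± 28.7 CPM per kilobase for MT-ND6, the gene of complex I transcribed from the other strand, to 7274 ± 518 for MT-ND4L, where ATP5B, the highest nuclear gene, had 317 ± 31.8. MT-ND6 and ATP5B did not differ beyond their spread. MT-ND4L, MT-ATP8 (7131 ± 794) and MT-ND4 (5359 ± 393) headed the order, and the first pair did not differ beyond its spread. MT-ND4L overlaps MT-ND4 and MT-ATP8 overlaps MT-ATP6, and their lengths are short, at 297 and 207 bases. Whether they collect reads of the longer neighbour was not tested. The complex IV core genes MT-CO3, MT-CO2 and MT-CO1 had 3172 ± 254, 2592 ± 258 and 2065 ± 186, MT-ATP6 had 2541 ± 245 and MT-CYB, the only such gene of complex III, 2103 ± 198. MT-ND3, MT-ND1 and MT-ND5 had 1483 ± 117, 1476 ± 142 and 1465 ± 101, which cannot be ordered at this spread, and MT-ND2 had 1097 ± 118.

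**Figure D5:**
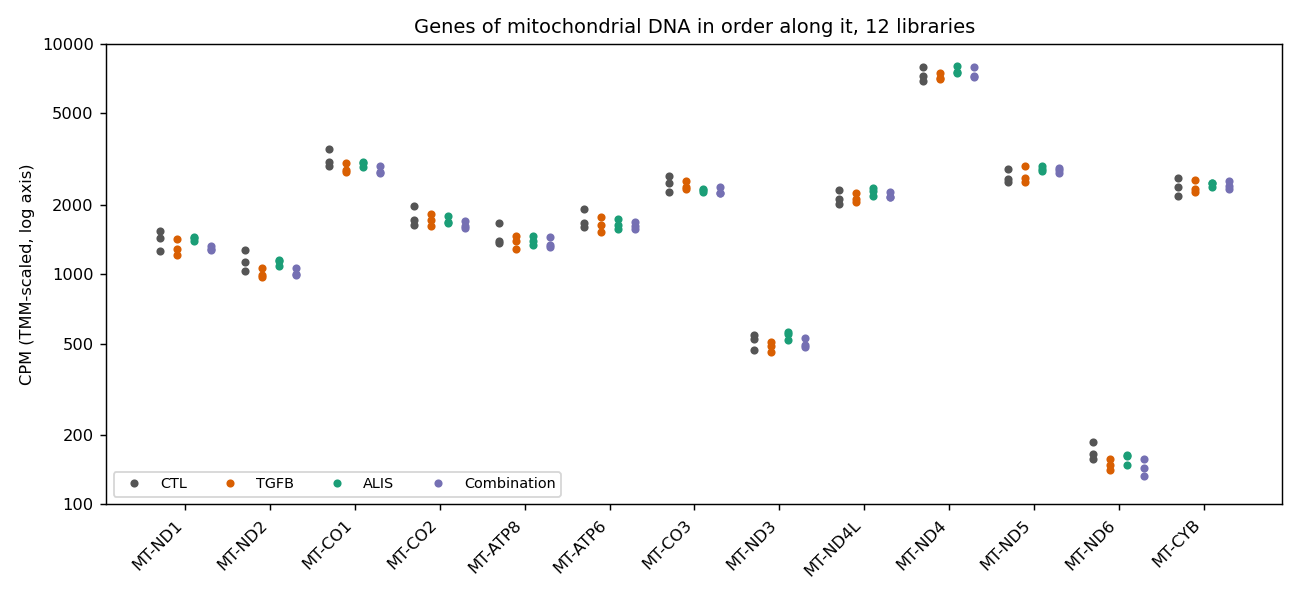
TMM-scaled CPM (vertical log axis) of the 13 genes of mitochondrial DNA in their order along it, with 1 point a library and 3 a group. The groups overlap in most genes, and MT-ND6 and MT-ND3 are the lowest in all 12 libraries.

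Many counts also stand at nuclear copies of mitochondrial DNA on chromosome 1. MTCO1P12 had 8518 ± 610 CPM in untreated cells, against 3184 ± 287 for MT-CO1 itself, MTND2P28 3176 ± 304 against 1143 ± 123 for MT-ND2, and MTATP6P1 3749 ± 322 against 1731 ± 167 for MT-ATP6. How reads that match both a gene and its copy were counted was not tested. The levels of MT-CO1, MT-CO2, MT-CO3, MT-ND1, MT-ND2, MT-ATP6 and MT-ATP8 in the table may therefore be partial. If such reads were counted at both places, the sums below hold them more than once. With the counts of the 7 copies added to their genes, a setting chosen after the data were seen, the sum for MT-CO1 was 11702 ± 890 CPM untreated, 10718 ± 596 with TGFβ, 11164 ± 171 with alisertib and 10390 ± 274 with both. The counts of called genes in this setting were those of the counts as deposited, except 22 in place of 21 for both agents against untreated cells.

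With TGFβ 12 of the 13 were below 0 on the log2 scale and none was called, against 38.6% of all tested genes. This count of calls depended on the setting. With a term for the 4 libraries 5 were lower, without the 4 libraries 3 were lower (10 of 13 below 0), without a filter on low counts 3 were lower, and with the offset for GC content and length 1 was higher and 2 lower (6 of 13 below 0). MT-ND6 stood at 186, 165 and 157 CPM untreated and 148, 141 and 157 CPM with TGFβ (-0.19, adjusted p = 0.0651, edgeR). MT-ND2 stood at 1274, 1127 and 1030 CPM and at 972, 993 and 1065 CPM (-0.18, adjusted p = 0.0503, edgeR). Both groups overlapped in each gene. Against untreated cells, cells given both agents had MT-ND6 lower (-0.23, adjusted p = 0.0271, edgeR) and MT-CO1 lower (-0.17, adjusted p = 0.0366, edgeR), and MT-CO1 fell from 3509, 3077 and 2966 CPM to 2942, 2771 and 2759 CPM. The call of MT-CO1 was lost in 6 of 19 other settings and that of MT-ND6 in 4; without CTL 1 they were -0.10 and -0.15 and not called. With the offset 2 of the 13 were higher and 6 lower, and 49.8% of all tested genes were called. With alisertib present all 13 were below 0 with TGFβ and none was called, but 5 were called lower without the 4 libraries and also with a term for them, whereas with the offset 4 of 13 were below 0 and 5 were called higher. Of all tested genes, 38.4% were called in this comparison, 48.8% without the 4 libraries, 51.0% with the term and 46.5% with the offset.

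Several small subunits have isoforms that are known from muscle, testis or other tissues, and in this line 1 isoform was far above the other in COX6A, COX6B, COX7A, COX7B and COX8. COX6B1 had 143 ± 7.27 CPM per kilobase in untreated cells and COX6B2, known from testis, 0.0502 ± 0.0155. COX7B had 37.99 ± 5.28 and COX7B2 0.138 ± 0.0900. COX6A1 had 52.4 ± 3.78 with COX6A2, the form of heart and skeletal muscle, at 0 counts; COX7A2 had 96.1 ± 10.6 with the muscle form COX7A1 at 0 counts. COX7A2L, a relative of COX7A2 that joins complexes III and IV, had 16.5 ± 0.216 and was within 16.5 and 17.4 in the 4 group means, whereas COX7A2 itself fell. For COX8A it was 161 ± 25.6. Of the c subunit genes ATP5G1 had 33.1 ± 1.75, ATP5G3 29.4 ± 1.68 and ATP5G2 20.2 ± 1.85.

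COX6B2 and COX7B2 were described but stood near the limit of detection, with ATP5L2 at 0.280 ± 0.0380 CPM. COX6B2 was at 0.191 ± 0.0590 CPM untreated and 0.329 ± 0.0924 CPM with both agents, and no comparison of it was called. Within the complexes the nuclear genes with the highest level per kilobase in untreated cells were NDUFS5 (289 ± 18.2) in complex I, SDHD (64.3 ± 2.25) in II, UQCRH (131 ± 14.9) in III, COX8A in IV and ATP5B in V. The lowest were NDUFS7 (0.506 ± 0.183), SDHA (18.3 ± 1.41), UQCR11 (15.3 ± 1.16), COX6B2 and ATP5D (2.05 ± 0.750). Lengths are those deposited and can include long overlapping models. In all, 36 of the 93 genes overlap another row that holds at least 10% of their counts, among them NDUFV2, NDUFS3, ATP5S, NDUFS7 and NDUFA13, and since the kit does not mark strand those reads cannot be told apart. A second row with the symbol of NDUFB8, SDHD, UQCR11 or NDUFA7 was not called in any comparison.

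Of the 11 subunits and carriers that the symbol pattern leaves out, 9 were tested. With TGFβ 1 rose and 1 fell. CYC1, the cytochrome c1 of complex III, rose from 85.0 ± 18.2 to 113 ± 17.0 CPM (0.42, adjusted p = 0.0476, edgeR), in the same direction as UQCRC1. The adjusted p of CYC1 lies just under the threshold. For CYC1 and the other related genes here and below, values come from the fit to all 12 libraries. Their values without the 4 libraries that stood apart or with the offset are not given. CYCS, the mobile carrier cytochrome c, fell from 182 ± 17.3 to 151 ± 1.17 CPM (-0.27). COX4I1 was 138 ± 11.0 and 156 ± 10.4 CPM and not called (0.17), and COX4I2 and NDUFA4L2, forms known from hypoxia, had group means under 0.1 CPM and were not tested.

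The background for the counts of related genes is 20.1% of all tested genes called lower and 18.5% called higher with TGFβ. Among the assembly factors of complex I 1 of 15 rose, ECSIT (0.55), and 2 fell, COA1 (-0.37) and NDUFAF2 (-0.23). For complex III 2 of 6 fell, UQCC1 (-0.39) and LYRM7 (-0.37), and none rose. For complex IV 1 of 22 rose, COX19 (0.27), and 2 fell, LRPPRC (-0.44) and COX15 (-0.28). For complex V 2 of 3 fell, ATPAF1 (-0.46) and TMEM70 (-0.28), and for complex II 2 of 4 fell, SDHAF4 (-0.48) and SDHAF3 (-0.34). UQCC1 was at 130 ± 0.251 CPM untreated and 99.5 ± 2.17 CPM with TGFβ, and it was also 0.17 higher with alisertib (adjusted p = 0.0291, edgeR), at 146 ± 5.73 CPM.

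Among 9 regulators of mitochondrial gene expression, PPARGC1A changed most. It was at 3.04, 3.03 and 2.57 CPM untreated and 0.356, 0.469 and 0.455 CPM with TGFβ, with no overlap (log2 fold change -2.75 ± 0.25, adjusted p = 4.8e-07, edgeR), and with alisertib present it fell from 4.31 ± 1.01 to 0.675 ± 0.240 CPM (-2.68). PPARGC1B, its relative, fell by 0.31, while PPRC1 (0.32) and ESRRA (0.47), a nuclear receptor that PGC-1α works with, rose. NRF1 (-0.02) and GABPA (0.03), whose motifs are named above, were not called. Of 17 genes that copy, transcribe or process mitochondrial DNA 2 rose, POLRMT (0.60) and POLG (0.29), and 5 fell, among them PNPT1 (-0.48), LRPPRC and TFB1M (-0.37); TFAM, which packages mitochondrial DNA, was not called (-0.11). The mitochondrial ribosomal RNA MT-RNR2 rose from 5909 ± 336 to 6915 ± 619 CPM (0.23).

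Upstream of the chain, 6 of 12 genes of pyruvate entry fell with TGFβ and none rose, beside 20.1% of all tested genes called lower. PDK4, a kinase that switches off pyruvate dehydrogenase, fell from 6.12, 5.79 and 6.32 CPM to 1.39, 1.04 and 1.66 CPM (log2 fold change -2.15 ± 0.14, adjusted p = 1.7e-08, edgeR), and DLAT (-0.35) and PDHX (-0.23), parts of the enzyme itself, also fell. Alisertib raised PDK4 to 10.2 ± 0.275 CPM (0.75, adjusted p = 0.00286, edgeR). Of 14 genes of the TCA cycle 1 rose, IDH3G (0.47), and 2 fell, SUCLA2 (-0.22) and IDH3A (-0.19), which are shares under those of all tested genes in both directions.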

How the data were processed

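The gene table deposited by the authors holds read counts per gene, not normalized, and RPKM values, which were not used here. Per the labels' protocols, total RNA was sequenced from libraries of a kit that does not mark strand. TopHat, featureCounts of Subread and the hg19 build are named in the submitters' processing notes, with no versions. From the counts, TMM-scaled CPM and fits with edgeR 4.0.16 (quasi-likelihood, robust, filterByExpr, limma 3.58.1, R 4.3.3) were computed over all 12 libraries, with 8 residual degrees of freedom, 20571 genes and Benjamini-Hochberg adjustment. A gene was called at an adjusted p under 0.05. The edgeR fit was tested on simulated data. GC content came from GENCODE transcripts (GRCh38) and the offset for GC content and length was fitted with mgcv 1.9.3 on 19649 genes. Alternatives were DESeq2 1.42.0, no filter on low counts, only the groups compared, the 4 libraries that stand apart left out or given a term, the offset, each library left out, and, chosen after seeing the data, counts of nuclear copies added to their mitochondrial genes. The text names, for each comparison, 5 called genes at either end of the fold changes (mean of 5 CPM or more), all genes of mitochondrial DNA, the isoform sets, the SDH genes, the highest and lowest level per kilobase in each complex, and up to 3 called genes of each related list with a few always given; others were named as examples of their complex after their values were seen. The members and lists were chosen with earlier results of these data known. Depth was 93701658 to 120619368 counts per library.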

Additional observations from a re-analysis of the deposited data

How the results depend on the processing

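The counts of called respiratory chain genes moved most when the 4 libraries that stand apart were treated differently. With TGFβ (23 called) they were 13 with only the groups compared, 35 without the 4 libraries, 45 with a term for them and 12 to 33 with each library left out. Of all tested genes, 34.1%, 45.3%, 51.2% and 30.9% to 38.1% were called in these settings. With alisertib (0 called) they were 36 without the 4 libraries, 11 with the term, 9 with the offset for GC content and length, 2 by DESeq2 and 0 to 11 with each library left out. The shares of all tested genes were 24.5%, 19.7%, 18.3%, 9.31% and 3.41% to 12.3%. With both agents against untreated cells (21 called) they were 8 with only the groups compared, 37 without the 4 libraries, 48 with the term, 37 with the offset and 8 to 32 with each library left out. The shares of all tested genes were 33.6%, 47.4%, 51.5%, 49.8% and 31.7% to 38.5%. For both agents against TGFβ (0 called) 1 was called without the 4 libraries (MT-ND5, 0.12), 1 with the term (SDHB, 0.14) and 1 with the offset (MT-CO3, -0.12), and 0 with any library left out. In the first 3 of these settings 6.92%, 8.85% and 8.86% of all tested genes were called. For both agents against alisertib (30 called) they were 57 without the 4 libraries, 52 with the term and 19 to 41 with each library left out. The shares of all tested genes were 48.8%, 51.0% and 29.7% to 42.7%. In the interaction 3 were called without the 4 libraries, beside 3.59% of all tested genes, and 0 with any single library left out. The cause was not tested. Of 80 single-gene values recomputed under 19 alternatives each (1520 values), 104 lost the call, 47 gained one in the same direction, 5 were called in the opposite direction and the other 1364 stayed on their side of the threshold, values that were not called and changed sign included. These 5 are genes of mitochondrial DNA in the comparison of both agents against alisertib with the offset: MT-ATP6 0.0946, MT-CO3 0.0877, MT-ND4 0.0677, MT-ND5 0.0868 and MT-CYB 0.0879. Of 41 called gene values 24 were called under every alternative, those of ATP5B, COX7A2, NDUFV2 and UQCRFS1 among them. An interaction cannot be fitted on only 2 groups. No paired analysis was possible because the groups share no replicate numbers. Genes near the limit of 3 counts are limited by depth.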
